A study of Homo sapiens with 10 samples.

Results

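The 10 genes described here, TRAF5, TRAF4, TNFRSF10A, TNFRSF10B, FAS, CASP8, CFLAR, TNFAIP3, NFKBIA and BIRC3, belong to the signaling pathway of the tumor necrosis factor (TNF) receptors. They were taken as a named list that was in part chosen by the R5020 differences of these same arrays, so those differences are given below as a description, with no test. On the array, 26 of 22277 probe sets were paired with 1 of these symbols alone and covered 8 of the 10 genes. TNFRSF10A and BIRC3 had no probe set paired with them alone, so their expression was not analysed here. All 8 measured genes passed the filter on level, as did 10911 of 11963 genes in all. Each gene is led by its probe set of highest mean.

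The cells were T47D-Y, a subline of the luminal breast cancer line T47D that lacks the progesterone receptor (PR), carrying inducible vectors. The iKR line carried PR-B with the K388R change, which cannot be joined to SUMO at that lysine, the iWT line carried wild type PR-B, and the iEV line carried the empty vector and was PR null. Cells were given the dimerizer AP21967 for 2 d, which induces the vector's product, or its ethanol vehicle. They then received the synthetic progestin R5020 for 6 h or its ethanol vehicle. All 4 combinations were measured in iKR and in iWT, and only the R5020 vehicle, with and without AP21967, in iEV. This makes 10 conditions with 1 array each. The lines were clonal, so that clone and receptor cannot be told apart, and no R5020 array of iEV was among the samples.

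Receptors of the TNF family signal through adaptor proteins. Those with a death domain, such as FAS and the TRAIL receptor TNFRSF10B, recruit caspase-8 and can start apoptosis. Others recruit TRAF adaptors that lead to activation of the transcription factor NF-kB, whose targets include its own inhibitors, such as the products of NFKBIA and TNFAIP3, which limit the signal.

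The array medians lay between 8.12 and 8.15 on the log2 scale of the deposited values. The PGR probe set stood at 11.34 to 12.08 on the AP21967-treated iKR and iWT arrays, at 10.65 to 11.77 on those without AP21967, and at 6.17 and 6.25 in iEV. Receptor mRNA was thus already far above iEV without AP21967. With AP21967 it was at 12.08 in iKR and 11.34 in iWT with vehicle, and at 11.38 in iKR and 11.89 in iWT with R5020. Without AP21967 it was at 10.65 in iKR and 11.12 in iWT with vehicle, and at 11.43 in iKR and 11.77 in iWT with R5020. It was higher in iKR only on the vehicle arrays with AP21967 and higher in iWT in the other 3 conditions, and its part in the differences between the lines below was not tested. All 8 luminal markers had mean levels of 10.2 or more. Their mean per array ran from 12.68 to 13.33 and moved with R5020 where AP21967 was given, to 12.68 with R5020 against 13.12 with vehicle in iKR, and to 13.08 against 13.33 in iWT. The part of this in the R5020 differences below was not tested. The mean level of the basal, fibroblast and leukocyte lists moved by under 0.2 between arrays (6.95 to 7.10, 7.03 to 7.15 and 7.23 to 7.37).

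The promoter sequences are shown for 3 of the genes that were higher with R5020 in both AP21967-treated lines. TRAF5 had the strongest response to R5020, and NFKBIA and TNFAIP3 are textbook NF-kB targets. Each run is the 250 bases before a transcription start in RefSeq (GRCh38.p14), read 5′ to 3′ along the gene's strand, with matches to the NF-kB consensus site in capitals. The windows are chr1:211326385-211326634 (plus strand) for TRAF5, chr14:35404750-35404999 (minus strand) for NFKBIA and chr6:137867009-137867258 (plus strand) for TNFAIP3.
TRAF5: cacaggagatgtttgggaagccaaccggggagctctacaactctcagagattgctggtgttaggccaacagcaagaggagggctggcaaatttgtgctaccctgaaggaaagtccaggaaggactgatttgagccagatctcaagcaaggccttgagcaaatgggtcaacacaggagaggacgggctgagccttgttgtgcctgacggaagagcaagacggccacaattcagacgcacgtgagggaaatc
NFKBIA: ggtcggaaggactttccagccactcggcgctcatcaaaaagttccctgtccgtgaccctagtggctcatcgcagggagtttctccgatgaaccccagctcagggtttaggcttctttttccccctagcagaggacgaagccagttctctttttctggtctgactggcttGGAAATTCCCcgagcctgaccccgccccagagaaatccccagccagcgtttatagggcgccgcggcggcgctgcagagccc
TNFAIP3: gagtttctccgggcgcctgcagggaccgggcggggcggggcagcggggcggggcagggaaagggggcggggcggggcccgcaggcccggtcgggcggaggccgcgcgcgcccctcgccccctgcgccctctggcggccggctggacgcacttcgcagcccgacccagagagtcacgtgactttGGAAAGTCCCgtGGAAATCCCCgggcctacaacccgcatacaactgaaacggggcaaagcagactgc
The NFKBIA window held 1 NF-kB match, which begins 81 bases before the start, and the TNFAIP3 window held 2, which begin 67 and 55 bases before it. The TRAF5 window shown held none, nor did the other 2 TRAF5 windows. The search also covered AGAACA, the half-site bound by PR and related steroid receptors, on both strands. It was found in none of the 3 TRAF5 windows and in 2 of the 17 windows of the 8 listed genes that had one, namely 1 of FAS and 1 of CFLAR. These shares stand beside 12.4% of all 34943 windows for AGAACA and 9.95% for the NF-kB site, which was found in 5 of the 17. An inverted repeat of the half-site with 3 bases between its arms was found in none of the 17 windows and in 0.00286% of all windows. A match is a description of letters, and a window without one says nothing of binding elsewhere. The 8 genes with windows are not the 8 measured ones. They include BIRC3, whose 1 window held an NF-kB match and is counted in the 5, and neither TNFRSF10A nor TNFRSF10B.

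TRAF5, the adaptor of CD40 and other TNF receptors, showed by far the strongest response to R5020 among the 8 genes. With AP21967, it stood at 10.10 with R5020 and 6.52 with vehicle in iKR cells, and at 9.42 with R5020 and 6.34 with vehicle in iWT cells. Without the inducer, the levels were 6.27 with R5020 and 6.42 with vehicle in iKR, and 6.18 and 6.22 in iWT. The iEV arrays were at 5.98 with AP21967 and 6.07 without. The 2 arrays with both agents therefore lay more than 2 log2 units above all the others, whose highest was 6.52. The R5020 difference with AP21967 was 3.58 in iKR and 3.08 in iWT, or 12.0 and 8.48 fold, and in both lines only 1 of 10911 genes had a larger one. Without AP21967 the difference was -0.14 in iKR and -0.04 in iWT. The levels outside the responding arrays are close to log2 6, the limit of the filter on level, so the fold rests on a low starting signal. A single probe set reports this gene. In cultures measured in bulk, a large change in some cells and a smaller change in all of them cannot be told apart.

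**Figure D1:**
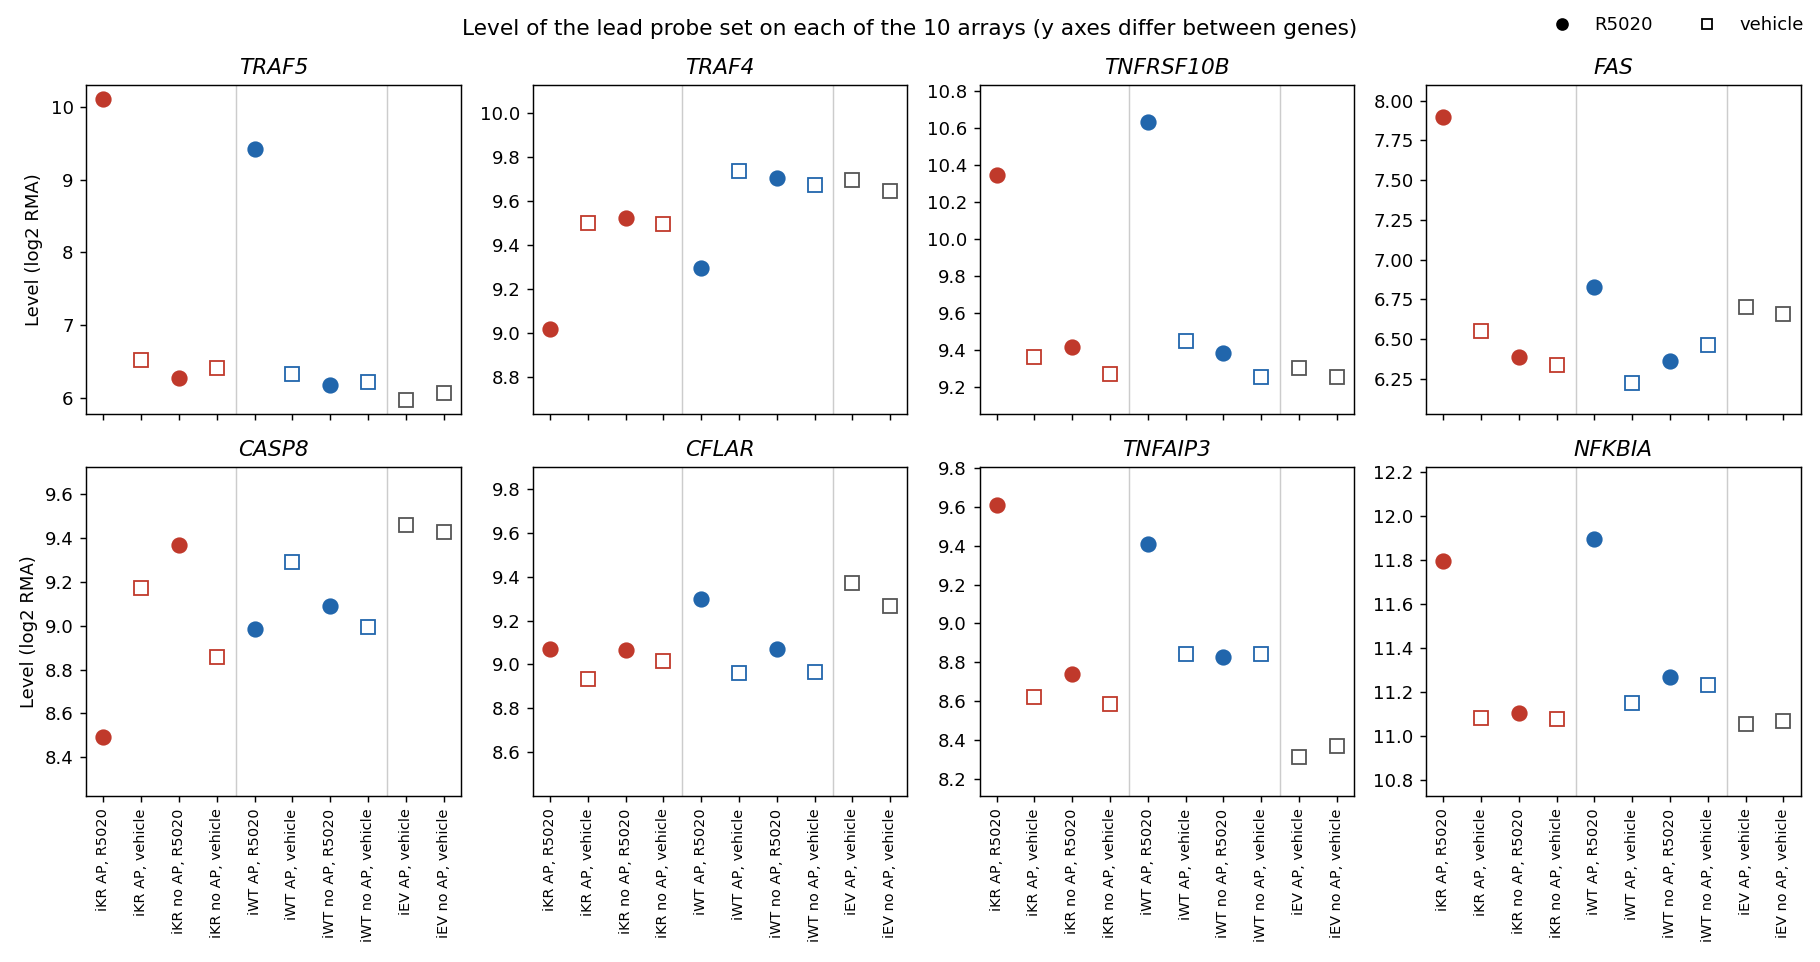
Level of the lead probe set of each of the 8 genes (y axis, log2 RMA; axes differ between genes) on each of the 10 arrays (x axis), 1 point per array, filled circles for R5020 and open squares for vehicle. TRAF5 stood at 10.10 and 9.42 on the AP21967 and R5020 arrays of iKR and iWT and at 6.52 or lower on the others.

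The 5 genes whose profile over the 10 arrays was most like that of TRAF5 were RASGRP1, IL20RA, ADGRA2, F3 and ESRRG. Likeness was measured as the root mean square difference of the profiles after each gene was centred on its own mean. It was 0.33 for RASGRP1, an activator of Ras, 0.40 for IL20RA, a subunit of cytokine receptors, and 0.41 for ADGRA2, an adhesion receptor. It was 0.42 for F3, which encodes tissue factor, and 0.49 for the orphan nuclear receptor ESRRG. Their R5020 differences with AP21967 ran from 2.29 (ESRRG) to 3.96 (RASGRP1) in iKR and from 2.17 (RASGRP1) to 3.45 (IL20RA) in iWT. Among the other 7 listed genes TNFRSF10B came nearest to TRAF5, at 0.98. These 5 genes were picked as the nearest of all, so any other gene is farther by construction. The profiles were not scaled, so a gene with the same pattern but a smaller change also counts as farther.

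TRAF4, an unusual member of the TRAF family first found in breast carcinoma, was lower where TRAF5 was higher. With AP21967, it stood at 9.02 with R5020 and 9.50 with vehicle in iKR, and at 9.29 with R5020 and 9.74 with vehicle in iWT. Where AP21967 was left out, it was at 9.52 with R5020 and 9.50 with vehicle in iKR, and at 9.71 and 9.67 in iWT. In the PR-null iEV line it was at 9.70 with AP21967 and 9.65 without. The 2 arrays with both agents were below all others, whose lowest was 9.50. The R5020 difference was -0.48 in iKR and -0.45 in iWT with the lead probe set, and -0.45 and -0.41 with the other one, below 1.5 fold in each case.

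Of the death receptors, TNFRSF10B, which binds the ligand TRAIL, was higher with R5020 in both lines. With AP21967, it stood at 10.35 with R5020 and 9.36 with vehicle in iKR, and at 10.63 with R5020 and 9.45 with vehicle in iWT. Without AP21967, levels were 9.42 with R5020 and 9.27 with vehicle in iKR, and 9.39 and 9.26 in iWT. The iEV cells were at 9.30 with AP21967 and 9.25 without. Both arrays with the 2 agents were above the other 8, whose highest was 9.45. The R5020 difference was 0.98 in iKR and 1.18 in iWT, and it was 0.15 and 0.13 without AP21967. The 2 other probe sets gave 0.79 and 0.88 in iKR, and 0.63 and 0.71 in iWT. The order of the lines thus turned with the probe set, since iKR had the larger difference in 2 of 3.

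FAS, the receptor of the Fas ligand, was higher with R5020 in both lines and more so in iKR. With AP21967, its lead probe set stood at 7.90 with R5020 and 6.55 with vehicle in iKR, and at 6.83 with R5020 and 6.23 with vehicle in iWT. On the arrays without AP21967 it was at 6.39 with R5020 and 6.34 with vehicle in iKR, and at 6.36 and 6.46 in iWT. In iEV it stood at 6.70 with AP21967 and 6.66 without, so the R5020 array of iWT lay only just above the iEV arrays, while that of iKR lay well above every other array. The R5020 difference was 1.35 in iKR and 0.60 in iWT, or 2.54 and 1.52 fold. All 4 probe sets gave a larger difference in iKR, where they ran from 0.97 to 1.35, against 0.41 to 0.87 in iWT. By lead probe set, FAS alone of the 8 genes had differences in iKR and iWT more than 1.5 fold apart (0.74 on the log2 scale). Those of 2.50% of the 10911 genes were as far apart. The other FAS probe sets gave smaller gaps of 0.56, 0.31 and 0.23, below 1.5 fold. Mean levels of the 4 probe sets ran from 4.96 to 6.64, close to or under log2 6, the limit of the filter on level. With 1 array per condition these gaps could not be tested.

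CASP8, the caspase that death receptors recruit, was lower with R5020 in iKR with its lead probe set. With AP21967, it stood at 8.49 with R5020 and 9.17 with vehicle in iKR, and at 8.99 with R5020 and 9.29 with vehicle in iWT. Without AP21967, it stood at 9.37 with R5020 and 8.86 with vehicle in iKR, and at 9.09 and 8.99 in iWT. The iEV arrays were at 9.46 with AP21967 and 9.42 without. The iKR array with both agents was the lowest of the 10, whereas that of iWT lay inside the range of the arrays without R5020. The difference was -0.68 in iKR and -0.30 in iWT, but in iKR without AP21967 it was 0.51 in the other direction. The second probe set gave 0.08 in iKR and -0.12 in iWT with AP21967, and 0.41 in iKR without it, so that the lower level in iKR rested on 1 probe set.

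CFLAR encodes FLIP, which resembles caspase-8 but lacks its activity and competes with it at the receptors. With AP21967, its lead probe set stood at 9.07 with R5020 and 8.93 with vehicle in iKR, and at 9.30 with R5020 and 8.96 with vehicle in iWT. The iKR and iWT arrays without AP21967 lay between 8.97 and 9.07, and those of iEV were at 9.37 with AP21967 and 9.27 without. The AP21967 and R5020 array of iWT, the highest of the receptor lines, thus lay within the range of iEV. The difference was 0.14 in iKR and 0.34 in iWT. Over its 11 probe sets it ran from -0.13 to 0.35 in iKR and from -0.09 to 0.61 in iWT, and 9 of the 11 gave the larger value in iWT. These probe sets overlap in what they detect and are not independent.

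TNFAIP3 and NFKBIA encode the NF-kB inhibitors A20, a ubiquitin-editing enzyme, and IkBα, which holds NF-kB in the cytoplasm. With AP21967, the lead probe set of TNFAIP3 stood at 9.61 with R5020 and 8.62 with vehicle in iKR, and at 9.41 with R5020 and 8.84 with vehicle in iWT. Without the inducer, the levels were 8.74 with R5020 and 8.59 with vehicle in iKR, and 8.82 and 8.84 in iWT. In the PR-null iEV line it was at 8.31 with AP21967 and 8.37 without. Both arrays with the 2 agents were above all others. The R5020 difference was 0.99 in iKR and 0.56 in iWT with this probe set, and 0.79 and 0.69 with the other, so the gap between the lines narrowed with the choice of probe set.

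NFKBIA, measured by 1 probe set, was at 11.80 with R5020 and 11.08 with vehicle in AP21967-treated iKR cells. In AP21967-treated iWT cells it was at 11.90 with R5020 and 11.15 with vehicle. Without AP21967, levels were 11.10 with R5020 and 11.07 with vehicle in iKR, and 11.27 and 11.23 in iWT. The iEV cells were at 11.05 with AP21967 and 11.07 without, and the 2 arrays with both agents were above the other 8. The difference was 0.72 in iKR and 0.75 in iWT, and 0.03 in both lines without AP21967.

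Counted against all genes, 5 of the 8 were higher by more than 1.5 fold in iKR with AP21967 (TRAF5, TNFRSF10B, FAS, TNFAIP3 and NFKBIA), where 3.02% of the 10911 genes were. One gene, CASP8, or 1 of 8, was lower by that much, against 3.16% of all genes. In iWT, 4 of 8 were higher (TRAF5, TNFRSF10B, FAS and NFKBIA) and 0 lower, against 1.59% and 1.02% of all genes. The same 4 were higher in both lines and 0 lower in both, against 1.26% and 0.706%. Nothing is read from these counts, since the genes were chosen with this contrast in view. Just inside the threshold, which is 0.585 on the log2 scale, was FAS in iWT (0.60), and just outside it was TNFAIP3 in iWT (0.56). FAS in iWT fell outside it with median centring (0.58) and with cyclic loess (0.54). Without AP21967, 0 of the 8 passed it in iKR and 0 in iWT, where 0.0825% and 0.110% of all genes did in either direction. The median difference with AP21967 was 0.85 over the 8 genes and 0.03 over all genes in iKR, and 0.58 and -0.02 in iWT.

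**Figure D2:**
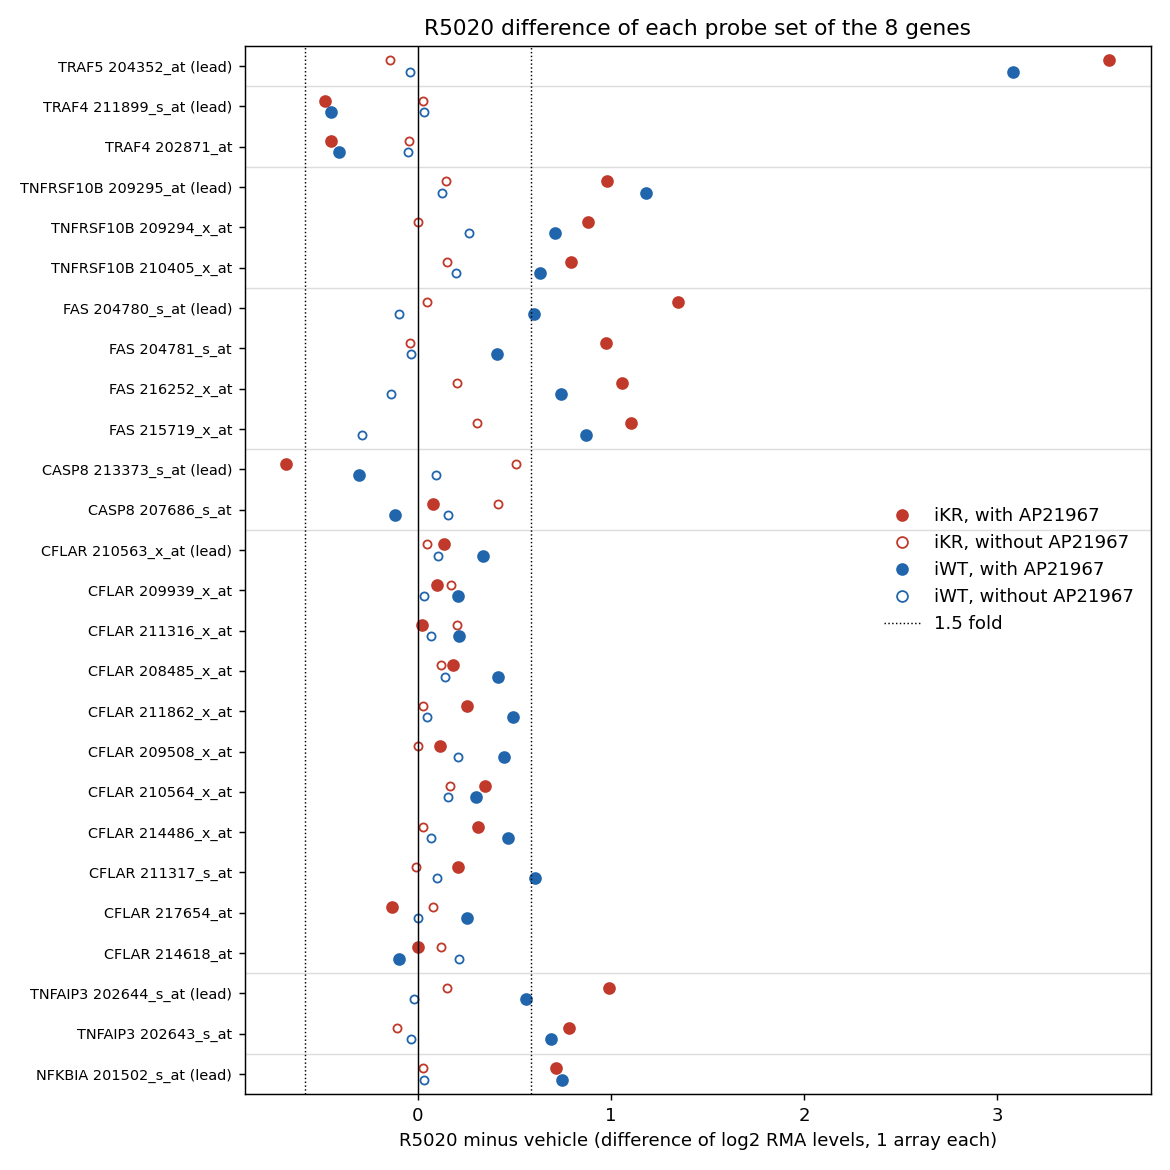
R5020 minus vehicle (x axis, difference of log2 levels of 1 array each) for each of the 26 probe sets (y axis), with AP21967 as filled points and without as open points, iKR in red and iWT in blue, and dotted lines at 1.5 fold. TRAF5 lay at 3.58 and 3.08, the 4 FAS probe sets were farther right in iKR, and the 2 CASP8 probe sets differed from each other.

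The comparisons of AP21967 with its vehicle and of the receptor lines with iEV used no R5020 array. They did use the AP21967 vehicle arrays of iKR and iWT, which are also the reference of the R5020 differences that helped to choose the genes. These comparisons are therefore not wholly free of that choice. They were tested with limma, with p-values adjusted over 10911 genes. They rest on lines or conditions as repeats, so the p-values measure only the spread between these arrays. AP21967 without R5020 was compared with its vehicle over the 3 lines. None of the 8 genes was called, nor was any of the 10911 (0%), while 981 of them had an unadjusted p under 0.05, CASP8 among them (0.22 ± 0.06 SE, adjusted p = 0.48). For TRAF5 the AP21967 difference was 0.10 in iKR, 0.12 in iWT and -0.09 in iEV, small beside its response to R5020.

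Against iEV on the vehicle arrays, TRAF5 and TNFAIP3 were higher and CASP8 and CFLAR were lower in both receptor lines. Both comparisons share the iEV arrays. TRAF5 averaged 6.47 in iKR, 6.28 in iWT and 6.02 in iEV, which was higher by 0.45 ± 0.07 (SE) in iKR (adjusted p = 0.0029, limma) and by 0.26 ± 0.07 in iWT (adjusted p = 0.032, limma). TNFAIP3 averaged 8.60 in iKR, 8.84 in iWT and 8.34 in iEV, higher by 0.26 ± 0.06 in iKR (adjusted p = 0.013, limma) and by 0.50 ± 0.06 in iWT (adjusted p = 0.00069, limma). The vehicle levels of both genes were thus above iEV before R5020 was given. For TRAF5 this was by far less than its own R5020 difference with AP21967. The TRAF5 vehicle levels, from 1 probe set, lay close to log2 6, the limit of the filter on level. For TNFAIP3 the difference from iEV was 0.50 in iWT beside an R5020 difference of 0.56, and 0.26 in iKR beside 0.99.

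CASP8 averaged 9.01 in iKR, 9.14 in iWT and 9.44 in iEV, with differences of -0.43 ± 0.08 in iKR (adjusted p = 0.0065, limma) and -0.30 ± 0.08 in iWT (adjusted p = 0.03, limma). CFLAR averaged 8.97 in iKR, 8.96 in iWT and 9.32 in iEV, with differences of -0.34 ± 0.06 in iKR (adjusted p = 0.0066, limma) and -0.36 ± 0.06 in iWT (adjusted p = 0.0061, limma). For CFLAR the call depended on the probe sets. Without those that can bind several transcripts (suffixes _x_at and _s_at) the difference was 0.01 in iKR (adjusted p = 0.93, limma) and -0.15 in iWT (adjusted p = 0.14, limma). These values come from 1 probe set of mean level 6.21, close to log2 6. Averaging all 11 probe sets gave -0.30 in iKR (adjusted p = 0.0053, limma) and -0.17 in iWT (adjusted p = 0.054, limma). FAS was lower in iWT (-0.34 ± 0.10, adjusted p = 0.044, limma), a call that averaging its 4 probe sets ended (adjusted p = 0.069, limma), and stood at -0.24 ± 0.10 in iKR (adjusted p = 0.13, limma).

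Among the 8 genes, limma thus called 2 higher and 2 lower in iKR, where 12.9% and 12.8% of all genes were called, and 2 higher and 3 lower in iWT, where 12.0% and 11.8% were. TRAF4, TNFRSF10B and NFKBIA were not called in either line. TRAF4 in iKR was close to the threshold, at -0.17 ± 0.06 (adjusted p = 0.058, limma), and passed it under 4 of 7 alternatives.

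The comparison of iKR with iWT over the 4 matched conditions includes the arrays with both agents, whose R5020 differences helped to choose the genes, so it is also given without them. Over all 4 conditions, TRAF4 was the only one of the 8 genes called. It averaged 9.39 in iKR and 9.60 in iWT, a difference of -0.22 ± 0.05 (adjusted p = 0.029, limma), while 2.69% of all genes were called lower and 4.18% higher in iKR. The levels of TRAF4 in iKR were below those of iWT in each of the 4 conditions. Without the arrays that had both agents, its difference was -0.20 (adjusted p = 0.026, limma). Leaving out the arrays without either agent, with R5020 alone or with AP21967 alone left differences of similar size (-0.23, -0.23 and -0.21). TRAF4 was not called in these fits, with adjusted p of 0.13, 0.097 and 0.15 (limma). For TRAF5 the difference over all 4 conditions was 0.29 ± 0.09 (adjusted p = 0.12, limma) and 0.16 without the arrays with both agents (adjusted p = 0.064, limma). For FAS it was 0.32 ± 0.17 (adjusted p = 0.33, limma) and 0.08 without them (adjusted p = 0.59, limma). The differences of TRAF5 and FAS were thus over 1.5 times smaller without the arrays that had both agents. TNFAIP3, at -0.09 ± 0.08 over all 4 conditions (adjusted p = 0.57, limma), was called without those arrays (-0.19, adjusted p = 0.05 after rounding, limma).

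**Figure D3:**
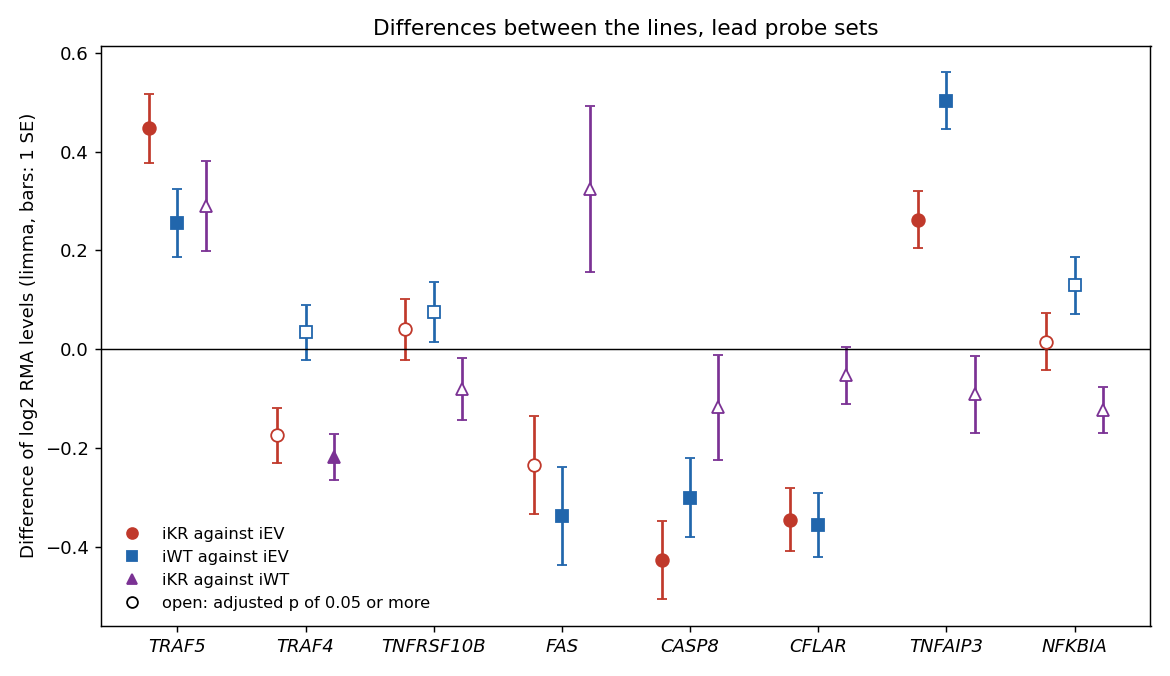
Differences between lines (y axis, log2 levels, bars 1 SE from limma) for the lead probe sets of the 8 genes (x axis), with iKR and iWT set against iEV on vehicle arrays and iKR against iWT on 8 arrays. Filled symbols passed an adjusted p of 0.05. TRAF5 and TNFAIP3 lay above iEV in both lines, CASP8 and CFLAR below it, and TRAF4 was the one filled symbol between iKR and iWT.

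Of 115 other genes of the pathway in 6 lists, 98 had a probe set and 86 passed the filter on level. Their R5020 response that depended on AP21967, the effect with it minus the effect without it over both receptor lines, was tested with limma. The lists were written with earlier results of these data known. One rose and 1 fell, against 1.41% and 0.687% of all 10911 genes called in each direction, and their median difference with AP21967 was 0.04 in iKR and 0.03 in iWT. These medians lay near those of all genes, 0.03 in iKR and -0.02 in iWT.

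The gene that rose was TNFRSF21, a receptor with a death domain also called DR6. With AP21967, it stood at 11.22 with R5020 and 10.20 with vehicle in iKR, and at 10.62 with R5020 and 10.02 with vehicle in iWT. Where AP21967 was left out, it was at 10.24 with R5020 and 10.07 with vehicle in iKR, and at 9.81 and 9.86 in iWT. In iEV it stood at 8.97 with AP21967 and 9.11 without. Both arrays with the 2 agents were the highest of their line. The response was 0.76 ± 0.15 (SE, adjusted p = 0.043, limma), and it was no longer called without the iWT pair that lacked AP21967 (0.65, adjusted p = 0.18, limma). Median centring also ended the call (0.72, adjusted p = 0.051, limma). With AP21967 the R5020 difference was 1.02 in iKR and 0.61 in iWT. A second probe set gave 0.63 in iKR and 0.86 in iWT, so the order of the lines turned with the probe set.

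The gene that fell was TNFRSF11B, which encodes osteoprotegerin, a soluble decoy receptor. With AP21967, it stood at 6.39 with R5020 and 7.18 with vehicle in iKR, and at 6.81 with R5020 and 7.48 with vehicle in iWT. On the arrays without AP21967 it was at 7.21 with R5020 and 7.16 with vehicle in iKR, and at 7.34 and 7.56 in iWT. The iEV arrays were at 7.02 with AP21967 and 7.04 without, so the arrays with both agents were the lowest of the 10. The response was -0.65 ± 0.13 (adjusted p = 0.039, limma), and it was no longer called without the iKR pair that lacked AP21967 (-0.52, adjusted p = 0.35, limma). Cyclic loess also ended the call (-0.69, adjusted p = 0.05 after rounding, limma). A second probe set, of mean level 6.11 and thus close to log2 6, gave -0.95 in iKR and -1.08 in iWT.

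By list, limma called 0 of 13 TNF ligands, the 2 genes above among 15 other receptors, and 0 of 20 adaptors and ubiquitin enzymes. It also called 0 of 11 caspases and executioners, 0 of 14 NF-kB subunits, kinases and other inhibitors, and 0 of 13 other NF-kB target genes. At an unadjusted p under 0.05, 10 of the 86 were higher and 8 lower, where 14.8% of all genes passed in either direction. Of these, 6 higher and 1 lower were adaptors and ubiquitin enzymes, whose median difference with AP21967 was 0.22 in iKR and 0.06 in iWT. No such gene was higher in the list of other NF-kB targets (0 of 13, with 2 lower), whose median was 0.04 in iKR and 0.04 in iWT. Only 13 of the 22 targets with a probe set passed the filter on level.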

How the data were processed

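RNA of 10 conditions, 1 sample each, was measured on Affymetrix human genome arrays. The authors applied Robust Multi-array Average (RMA) to the raw intensities, which corrects background, equalizes the distribution of values between arrays and yields 1 value per probe set. The deposited values are these log2 signals. RMA compresses differences of dim probe sets, and quantile normalization hides a shift shared by all genes. Probe sets were paired with genes through the platform annotation (19070 with 1 gene, 1043 with several, 2164 with none listed), and only those with 1 gene were used. A gene was tested if its level reached log2 6 on 1 array or more. Arrays have no depth, and their number limits the precision.

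The listed genes and the pathway lists were chosen with earlier results of these data known. All 10 listed genes were to be named with every probe set, along with called pathway genes, the 5 genes most like TRAF5, and PGR. Limma 3.58.1 in R 4.3.3 was used with Benjamini-Hochberg adjustment and a threshold of 0.05, and it was tested on simulated data. The AP21967 and iEV comparisons came from 1 fit of the 6 vehicle arrays with line and AP21967 as terms (2 residual degrees of freedom). The comparison of iKR with iWT used 8 arrays with condition as a block (3 residual degrees of freedom). The R5020 response of the pathway lists used the same 8 arrays with 6 parameters (2 residual degrees of freedom). The lines were thereby compared within matched conditions, and AP21967 within lines. Alternatives were other probe set rules, level filters, fold thresholds, normalizations and priors, and leaving out pairs, lines or conditions. Tables were handled with Python 3.11.15, pandas 2.3.3 and numpy 2.4.6, and figures were drawn with matplotlib 3.10.9.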

Additional observations from a re-analysis of the deposited data

Results flagged for a closer look

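3 probe sets had R5020 differences of opposite sign in the AP21967-treated lines, most of them small. For scale, R5020 differences without AP21967 had a standard deviation over all genes of 0.118 in iKR and 0.125 in iWT. Each value is the R5020 difference in iKR minus that in iWT on the log2 scale, and none of these gaps between the lines was tested, because each condition has 1 array. For the second CASP8 probe set it was 0.19, from a difference of 0.08 in iKR and -0.12 in iWT. For a CFLAR probe set of mean level 6.21 it was -0.39, from -0.13 in iKR and 0.26 in iWT. For another CFLAR probe set, of mean level 5.47, it was 0.096, from 0.0012 in iKR and -0.09 in iWT. None of the lead probe sets of the 8 genes had differences of opposite sign in iKR and iWT.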

How the results depend on the processing

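The 4 genes higher by 1.5 fold in both lines became 2 of the 4 genes that have a probe set other than _x_at and _s_at, and 1 (TRAF5) at 2.0 fold. They became 3 with median centring (without FAS, 0.58 in iWT), 4 with cyclic loess (TNFAIP3 in place of FAS, 0.60 and 0.54 in iWT) and 5 with the mean of probe sets (with TNFAIP3). Of the 8 genes, 5 were called against iEV in iWT. A mean level of log2 7 or more leaves 6 genes, without TRAF5 and FAS. Under that filter CASP8, CFLAR and TNFAIP3 stayed called in iWT. The mean of probe sets gave 3 calls in iWT. Leaving out _x_at and _s_at probe sets, which leaves 4 genes, gave 1 call in iWT and 2 in iKR. Between iKR and iWT, leaving out a condition gave 0 to 2 calls, and the vehicle arrays alone gave 0. For the pathway lists, the 2 calls became 1 with median centring (TNFRSF11B) and 1 with cyclic loess (TNFRSF21). They became 14 with the R5020 effect under AP21967 alone, 5 higher and 9 lower. CCL2, IRF1, TNFAIP8 and PLAU of the other NF-kB targets were among these, and their directions are not given here. The share of all genes called is given above only for the response that depended on AP21967, with no pair left out. It is not given for the R5020 effect under AP21967 alone or for the fits without a pair. A rise in calls among the pathway genes therefore cannot be told from a rise among all genes, and no NF-kB response is read from it. There were 1 to 15 calls when a pair of arrays was left out, and the cause was not tested. Small values with no call changed sign. The AP21967 effect on FAS was -0.043 with the mean of probe sets and -0.095 to 0.13 without a line. That on CFLAR was -0.046 to 0.047 without a line. That on TNFAIP3 was 0.0023 with median centring, 0.0026 with cyclic loess and -0.028 to 0.018 without a line. With the mean of probe sets, TNFRSF10B stood at -0.0098 in iKR and -0.0094 in iWT against iEV. CFLAR stood at 0.010 in iKR against iEV without _x_at and _s_at probe sets, a change that ended its call. Against iWT, CFLAR in iKR stood at 0.084 without them, at 0.011 on vehicle arrays and at -0.087 to 0.0053 without a condition, and CASP8 at -0.25 to 0.0077. The second CASP8 probe set gave an R5020 difference of 0.079 in iKR. The AP21967 effect on each of the 8 genes was called under no alternative.

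The design allows no test of R5020 in 1 line, has no R5020 array of iEV and 1 clone per vector, and holds PGR mRNA in iKR and iWT without AP21967. Single arrays cannot separate a response from the error of an array.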
